A study of Mus musculus with 15 samples.

Results

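The genes described here are 10 genes of coenzyme Q synthesis and handling, Pdss1, Pdss2, Coq2, Coq3, Coq4, Coq5, Coq6, Coq7, Coq9 and Coq10a, chosen by symbol and all found in each of the 3 deposited tables, out of 23393 genes listed. The kidneys came from C57BL/6 mice with the genotype ERRg fl/fl (Cre-negative controls) or ERRg fl/fl;Sim1-Cre (knockout), so every animal carried the floxed alleles of Esrrg, the gene of the nuclear receptor ERRγ. By their titles, 5 kidneys were from males aged 3 weeks (2 control, 3 knockout), 4 from females aged 3 weeks (2 and 2) and 6 from males aged 3 months (3 and 3). The animals were littermates, and polyadenylated RNA of the kidney was sequenced. Deletion was limited to cells that the Sim1 promoter reaches, and the RNA held all cell types of the kidney, so fewer cells of a type and less RNA per cell cannot be told apart. The source names of 3 knockout samples at 3 months say female where the title and the sex label say male. The authors' deposited table at 3 months has a mean of 11.9 normalized counts for Xist and 1477 for the Y-linked Ddx3y, against 23848 and 0.83 in the table of 3-week females.

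Coenzyme Q, or ubiquinone, is a lipid of the inner mitochondrial membrane that carries electrons from complex I, complex II and other dehydrogenases to complex III. Its long isoprenoid tail is made by the enzyme that PDSS1 and PDSS2 form together, COQ2 joins the tail to an aromatic ring, and the ring is then modified by a membrane-bound assembly of COQ3 to COQ7 and COQ9. In the kidney, inherited defects of COQ2, COQ6 and PDSS2 are known causes of podocyte disease, and the proximal tubule is rich in mitochondria. ERRγ is a transcription factor with known targets in oxidative metabolism, and each comparison sets knockout against control kidneys of the same sex and age.

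Promoter stretches are shown for Pdss1, Pdss2 and Coq10a, whose fold changes were among those most unlike between the ages, and for Coq7, whose difference between the ages had the opposite sign. They are from RefSeq on GRCm38.p6, the build also known as mm10, read 5′ to 3′ on the gene's own strand and limited to bases upstream of the start and outside annotated exons. Capitals mark AAGGTCA, the core element read by ERR and other nuclear receptors, or CCGGAAG, the core read by ETS factors, on either strand (TGACCTT and CTTCCGG where the match is on the opposite strand). The stretch of Coq7 holds neither, and the CCGGAAG matches of Pdss1 lie after its start and are not shown. The genes shown were chosen after their values were seen. Coq6, not shown, has CCGGAAG in its window and a difference between the ages above 0, like Coq7 (0.12 and 0.39, neither called). The windows of Coq9 and Coq3 hold neither element, with differences of -0.58 and -0.40. A link between matches and age differences was not tested.
Pdss1, chr2:22895272-22895320, plus strand: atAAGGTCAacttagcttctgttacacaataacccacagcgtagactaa
Pdss2, chr10:43221336-43221485, plus strand: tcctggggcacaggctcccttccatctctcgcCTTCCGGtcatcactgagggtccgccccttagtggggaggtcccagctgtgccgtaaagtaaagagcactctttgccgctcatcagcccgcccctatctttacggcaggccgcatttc
Coq10a, chr10:128370138-128370287, minus strand, upstream of its more distant start: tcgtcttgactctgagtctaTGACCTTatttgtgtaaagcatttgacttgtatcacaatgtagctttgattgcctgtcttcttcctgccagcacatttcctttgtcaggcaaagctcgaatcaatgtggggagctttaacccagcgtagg
Coq7, chr7:118533357-118533506, minus strand: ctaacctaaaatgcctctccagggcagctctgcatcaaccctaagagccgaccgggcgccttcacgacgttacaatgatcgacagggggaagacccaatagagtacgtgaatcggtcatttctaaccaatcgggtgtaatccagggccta

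Promoters were found for 9 of the 10 genes, all but Coq5, in 11 windows of 300 bases. None of the 11 windows held the extended ERR element TNAAGGTCA on either strand, which is present in 1.28% of all 32851 windows. The stricter form TCAAGGTCA was also in none of them, against 0.423% of all windows. The shorter core AAGGTCA, part of both longer forms, was in 2 of the 11 windows, against 4.72% of all windows. These were the window of Pdss1 and that at the more distant start of Coq10a. The window at the nearer start of Coq10a did not hold it. The ETS core CCGGAAG was in 3 of the 11 windows, those of Pdss1, Pdss2 and Coq6, against 8.86% of all. GCATGCGC, most of the palindrome read by NRF1, was in that of Coq2 alone, against 2.71% of all. These matches are letters in a window and say nothing about binding.

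The values are the authors' own comparisons. For each gene they give a mean normalized count over both genotypes, a log2 fold change, its standard error (SE) and an adjusted p, and they give no value for a single kidney. Values after ± are SEs. Esrrg, on chromosome 1 from 187608791 to 188214885, had log2 fold changes of 0.82 ± 0.20 (DESeq2 adjusted p = 0.000613) in 3-week males, 1.04 ± 0.17 (adjusted p = 1.7e-08) in 3-week females and -0.87 ± 0.57, with no p, at 3 months in the authors' deposited table. Its reads can come from exons outside the deleted part, so it checks neither the deletion nor the labels. The headers leave unsaid which genotype is the numerator. A negative value is read here as lower in knockout, since the title connects ERRγ with mitochondrial and reabsorptive genes and these are then lower, and with the ratio turned every direction below would change sides. Esrrg itself was positive at 3 weeks under this reading. The coenzyme Q genes are mitochondrial genes themselves, so their common direction is not independent of that reading. The recurring lowest means fit 4, 4 and 5 libraries in 3-week males, 3-week females and 3-month males, against 5, 4 and 6 in the labels, so which kidneys entered is not known. By the sign of their fold changes 2 of these libraries were of the numerator genotype in each table. Estimated totals per library, the summed means times the size factor that the steps imply, ran from 39414654 to 56976094 reads, from 21351311 to 46168304 and from 15168725 to 25916717.

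Coq9 was the most abundant of the 10 genes per length and the tail synthase genes were the least abundant (plot of levels). In 3-week males the authors' deposited table gave, per kb of exon, a mean normalized count of 2550 for Coq9, 1069 for Coq2 and 622 for Coq10a, above 93.5%, 84.0% and 73.0% of the genes tested. Coq5, Coq6, Coq3, Coq4 and Coq7 lay between 568 and 308 per kb in the same table. Pdss1 and Pdss2, which make the tail, were at 122 and 85.5 per kb there, above 34.5% and 29.0% of the genes tested. The order at the top and bottom was alike in the authors' deposited table of 3-month males, with Coq9 at 1068 per kb, Coq2 at 449, Pdss1 at 56.6 and Pdss2 at 45.2. Spread between kidneys is unknown for these levels, so neighbours in the order cannot be told apart. With coding length in place of exon length, Coq7 moved up, from above 55.4% to above 71.5% of the genes tested in 3-week males.

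**Figure D1:**
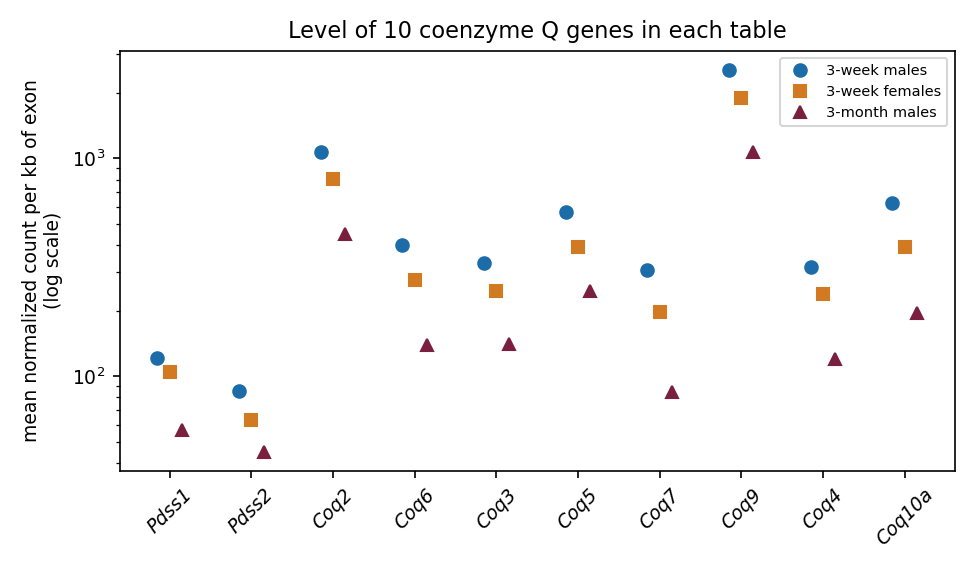
Mean normalized count per kb of exon (log axis) for the 10 genes, 1 point per deposited table, with no error because the tables hold no spread of the means. Coq9 is the highest and Pdss2 the lowest gene in each table; tables were normalized separately and at different depth, so heights are to be compared within a table only.

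In 3-week-old males, 3 of the 10 genes fell in the knockout, Coq9, Coq7 and Coq4, where 17.3% of all 14657 genes tested were called, 8.52% lower and 8.81% higher (authors' DESeq2 adjusted p under 0.05). None of the 10 was called higher. All 10 fold changes were negative, with a median of -0.38 against -0.01 for all genes tested. Coq9, a lipid-binding protein that COQ7 needs, had the lowest, and Pdss1 had the highest and nearest to 0. Scaling the libraries by total counts adds 0.18 to every log2 fold change of this table, as the shift between the genotypes' summed means. On that scale 9 of 10 were negative and their median was -0.20, against 0.17 for all genes tested. Coq4 was no longer called, which left 2 genes lower against 4.78% of all genes tested. The same scaling moved the share of higher calls among all calls from 50.8% to 75.2%.

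Among the genes that fell, Coq9 (chromosome 8, 94838321 to 94854895, plus strand) had a mean of 7790 normalized counts and a log2 fold change of -0.89 ± 0.16 (adjusted p = 1.52e-06) in the authors' deposited table of 3-week males, a ratio of 53.9% of control. Coq7 (chromosome 7, 118509659 to 118533356, minus strand), the hydroxylase of the next-to-last ring step, had a mean of 1985 and a log2 fold change of -0.66 ± 0.16 (adjusted p = 0.000539) in the authors' deposited table. Coq4 (chromosome 2, 29787493 to 29797935, plus strand), which organises the assembly and acts on the ring, was at -0.64 ± 0.21 (adjusted p = 0.0170) in the authors' deposited table. Exons of Coq4 share 27.1% of their length with Trub2 on the opposite strand, and whether counting used strand is not stated in the labels or headers.

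The other 7 genes were not called in 3-week males, with means from 510.1 normalized counts for Pdss2 to 2804 for Coq2 in the authors' deposited table. Coq2 lies on chromosome 5 (100654723 to 100675140, minus strand), as does Coq5 (115279666 to 115296972, plus strand). Coq3 lies on chromosome 4 (21879673 to 21912162, plus strand), Coq6 on chromosome 12 (84361657 to 84373796, plus strand) and Coq10a on chromosome 10 (128363100 to 128368997, minus strand). The tail synthase genes Pdss1 and Pdss2 were at -0.10 ± 0.22 and -0.43 ± 0.19 (adjusted p = 0.848 and 0.10) and Coq2, which joins tail and ring, at -0.37 ± 0.16 (adjusted p = 0.0813) in the authors' deposited table. The ring methyltransferase genes Coq3 and Coq5 were at -0.24 ± 0.17 and -0.38 ± 0.16, and the ring hydroxylase gene Coq6 at -0.37 ± 0.19 (adjusted p from 0.0908 to 0.389) in the authors' deposited table. Coq10a, a coenzyme Q-binding protein needed for its function in respiration, was at -0.18 ± 0.17 (adjusted p = 0.567) in the authors' deposited table. At an unadjusted p under 0.05, 6 of the 10 were lower, against 14.0% of all genes tested. At an adjusted p under 0.1, which added Coq2 and Coq5, 5 of the 10 were lower, against 11.0% of all genes tested.

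In 3-week-old females, Coq7 and Coq9 fell again, 2 of 9 genes tested, where 18.7% of all 14146 genes tested were called, 10.4% lower and 8.29% higher. Coq7 had a mean of 1275 normalized counts and a log2 fold change of -0.76 ± 0.15 (adjusted p = 2.07e-05) in the authors' deposited table, a ratio of 59.1% of control. Coq9 had a mean of 5754 and a log2 fold change of -0.56 ± 0.13 (adjusted p = 0.000297), a ratio of 68.0%, in the authors' deposited table. These 2 genes kept their call under each of the 6 alternatives that rescale or refilter the table. The 9 tested genes had negative values with a median of -0.25, against 0.01 for all genes tested. Scaled by total counts, a shift of 0.15, 7 of 9 were negative and their median was -0.10, against 0.16 for all genes tested. On that scale 6.07% of all genes tested were lower, and higher calls made up 74.0% of all calls instead of 44.2%.

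The remaining tested genes in females lay between -0.32 for Coq3 and -0.09 for Pdss2 in the authors' deposited table. Coq10a was nearest to the threshold at -0.28 ± 0.11 (adjusted p = 0.0684), and Coq4, called in males of that age, was at -0.20 ± 0.18 (adjusted p = 0.505) in the authors' deposited table. Pdss1 had the status Outlier and no p, with a log2 fold change of 0.08 ± 0.34 in the authors' deposited table, the only positive value among the 30 of the 10 genes.

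The genotype effects were not shown to differ between the sexes at 3 weeks for any of the 9 genes tested in both. The difference of the 2 fold changes was tested for 13737 genes (normal test with Benjamini-Hochberg adjustment), and 0% were called. At an unadjusted p under 0.05 there were 237, or 1.73%, with none of the coenzyme Q genes among them. If no gene differed and the SEs were right, that share would match the threshold. It was lower, so the test was conservative here and could miss differences. Coq4 had the largest difference, female minus male, at 0.44 (95% interval -0.11 to 0.98), followed by Pdss2 at 0.35 (-0.14 to 0.83) and Coq9 at 0.33 (-0.08 to 0.74). The interval for Coq7 ran from -0.53 to 0.34.

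**Figure D2:**
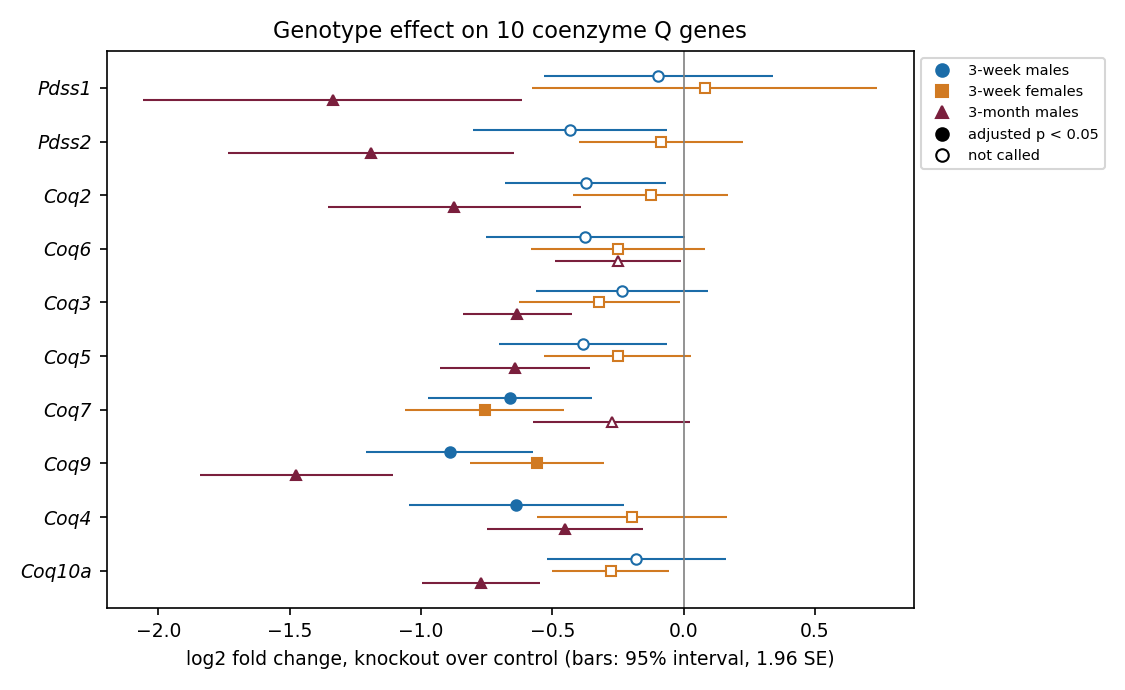
Log2 fold change, knockout over control, of the 10 genes (rows) in the 3 tables, with bars for the 95% interval; filled symbols have an adjusted p under 0.05. Coq7 and Coq9 are filled in both 3-week tables, 8 genes are filled at 3 months, and Coq7 and Coq6 are open at 3 months.

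At 3 months, 8 of the 10 genes fell in males as deposited, and the genes of the tail joined Coq9 at the bottom of the order. Of all 12828 genes tested at this age 57.5% were called, 27.8% lower and 29.8% higher. The median log2 fold change of the 10 genes was -0.71, against 0.01 for all genes tested, and all 10 were negative. Scaled by total counts, a shift of 0.49, 4 genes were called lower, Coq9, Pdss1, Pdss2 and Coq10a, where 10.6% of all genes tested were lower on that scale. Coq4, Coq6 and Coq7 turned positive without a call. That scaling moved the share of higher calls among all calls from 51.7% to 84.0% and the median of the 10 genes to -0.21, while the median of all genes tested stood at 0.51.

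Coq9 had a mean of 3263 normalized counts and a log2 fold change of -1.48 ± 0.19 (adjusted p = 3.54e-14) in the authors' deposited table of 3-month males, a ratio of 36.0% of control. Pdss1 (chromosome 2, 22895522 to 22940266, plus strand) followed at -1.34 ± 0.37 (adjusted p = 0.000761) in the authors' deposited table, with a mean of 240.3. Pdss2 (chromosome 10, 43221486 to 43464882, plus strand) was at -1.19 ± 0.28 (adjusted p = 5.82e-05) in the authors' deposited table, with a mean of 269. These ratios were 39.6% and 43.8% of control, where at 3 weeks in males they were 93.5% and 74.1%.

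Coq2 was at -0.87 ± 0.25 (adjusted p = 0.00105) and Coq10a at -0.77 ± 0.11 (adjusted p = 1.23e-10) in the authors' deposited table of 3-month males. The methyltransferase genes Coq5 and Coq3 lay close together, at -0.64 ± 0.15 (adjusted p = 3.5e-05) and -0.63 ± 0.11 (adjusted p = 1.04e-08), and Coq4 was at -0.45 ± 0.15 (adjusted p = 0.00652), in the authors' deposited table. The hydroxylase genes Coq7 and Coq6 did not pass, at -0.27 ± 0.15 (adjusted p = 0.113) and -0.25 ± 0.12 (adjusted p = 0.0660) in the authors' deposited table. Once centred on genes of similar abundance, Coq6 passed at -0.29 (adjusted p = 0.0350).

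**Figure D3:**
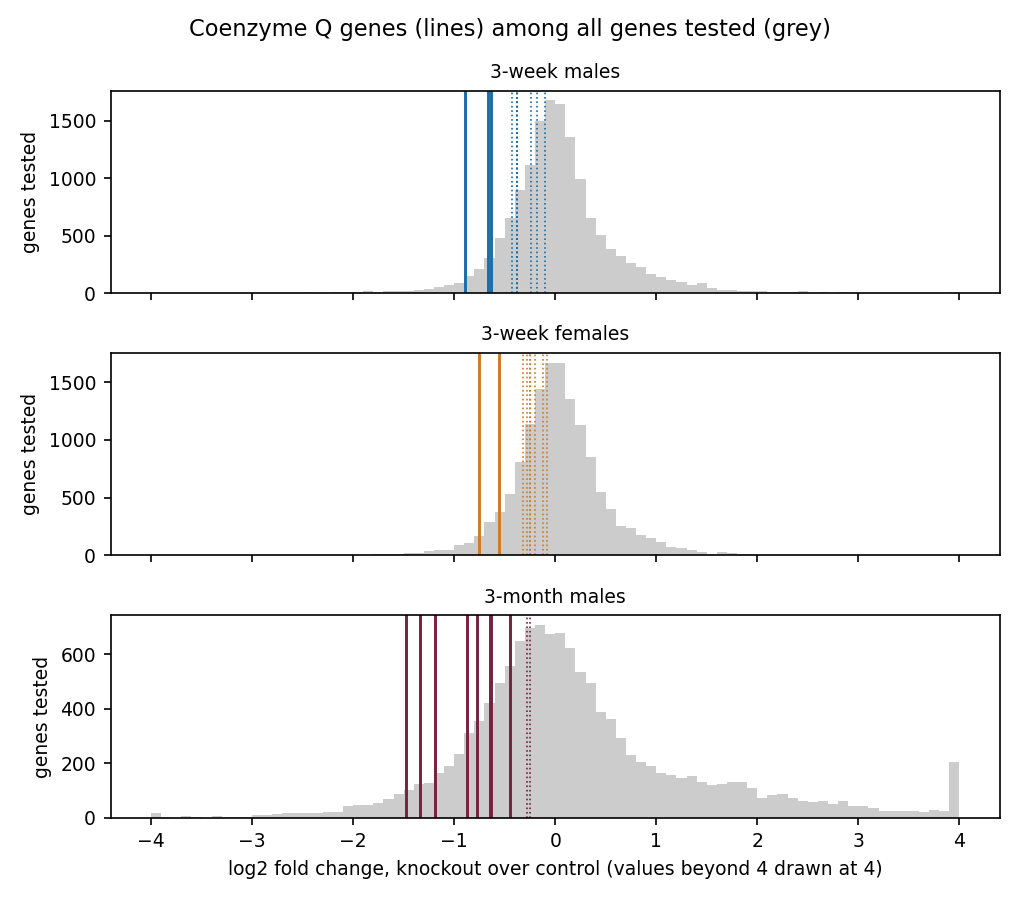
Histograms of the log2 fold changes of all genes tested in each table (grey, bins of 0.1), with the tested coenzyme Q genes as lines, solid where called lower and dotted where not. The lines lie left of 0 in all 3 tables (Pdss1 in 3-week females, at 0.08, was not tested and is not drawn), and the grey distribution is wider at 3 months (SD 1.26) than at 3 weeks (0.57 in males and 0.52 in females).

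Between the ages, the genotype effect of 2 of the 10 genes differed in males, Pdss1 and Coq10a, where 27.7% of all 12355 genes tested differed and 10.9% were more negative at 3 months (normal test, adjusted p under 0.05). Both were more negative. Pdss1 went from -0.10 to -1.34, a difference, 3 months minus 3 weeks, of -1.24 ± 0.43 (adjusted p = 0.0188). Coq10a went from -0.18 to -0.77, a difference of -0.59 ± 0.21 (adjusted p = 0.0208). Pdss2 and Coq9 missed the threshold, at -0.76 ± 0.33 and -0.58 ± 0.25 (adjusted p = 0.0754 and 0.0625). Coq7, Coq4 and Coq6 had differences above 0, of 0.39 ± 0.22, 0.18 ± 0.26 and 0.12 ± 0.23, and did not pass (adjusted p from 0.189 to 0.735). Coq2, Coq3 and Coq5 were at -0.50 ± 0.29, -0.40 ± 0.20 and -0.26 ± 0.22 (adjusted p from 0.121 to 0.398). The median difference of the 10 genes was -0.45, against 0.04 for all genes tested, and 5 of the 10 had an unadjusted p under 0.05, against 37.6% of all genes tested.

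The age differences depend on how the tables are scaled. With each table scaled to total counts, which adds 0.32 to every difference, Pdss1 and Coq10a no longer passed (-0.92 and -0.27, adjusted p = 0.0805 and 0.312), and Coq7 did, at 0.70 ± 0.22 (adjusted p = 0.00688). A shift common to all genes leaves the gap between 2 genes of a table as it is. The log2 fold change of Coq9 minus that of Coq7, whose proteins work as a pair, was -0.23 in 3-week males, 0.20 in 3-week females and -1.20 in 3-month males. That of Pdss1 minus Coq7 was 0.56 and 0.84 at 3 weeks, in males and females, and -1.06 at 3 months, where the value in females rests on the outlier Pdss1 with no p. Pdss1 and Coq7 had the most negative and the most positive difference between the ages as deposited, so this pair was chosen after its values were seen. The pair of Coq9 and Coq7 also holds Coq7, so its choice was not independent of the values either. These gaps are descriptions with no test, since errors of genes measured in the same libraries are not independent. The largest standard errors in the tables were 0.44, 0.42 and 1.10. Ndufs5 in 3-week females, with a mean of 0.18 normalized counts, had 0.04 ± 0.10, an SE below that of any tested coenzyme Q gene there. An unmoderated fold change on so few reads would have a wide SE, so the fold changes there were moderated towards 0. How strongly in each table is not stated in the labels or headers. The largest SE was higher at 3 months, so the strength may differ between the ages, and its part in the age differences was not tested.

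**Figure D4:**
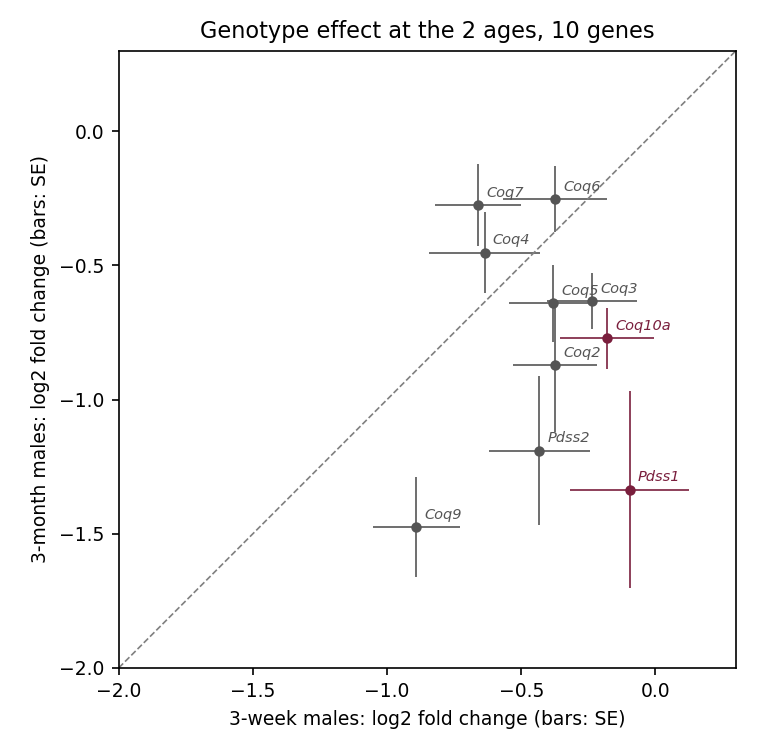
Log2 fold change of the 10 genes in 3-week males (horizontal) and 3-month males (vertical), with bars of 1 SE and the line of equal effects (dashed); dark red marks Pdss1 and Coq10a, whose difference had an adjusted p under 0.05 as deposited. Coq4, Coq6 and Coq7 lie above the line and the other 7 genes below it.

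Over the 3 comparisons Coq9 was called lower in each, Coq4 and Coq7 in 2, 6 genes in 1 (all of them at 3 months) and Coq6 in none. Of all genes tested 8.52%, 10.4% and 27.8% were lower (3-week males, 3-week females, 3-month males). How many of all genes were lower in 1, 2 or 3 comparisons is not given here, so these counts cannot be set against it. Of Coq4 and Coq7, the first was called in both tables of males and the second in both tables at 3 weeks.

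Genes that work beside the 10 were taken from a list of 8 partners, including the kinase-like regulators Coq8a and Coq8b (listed as Adck3 and Adck4), the phosphatase Pptc7 and the ferredoxin reductase Fdxr, which supplies electrons to COQ6. In 3-week males 3 of 8 fell, in females 2 of 7 tested and at 3 months 5 of 7 tested, with none higher, and medians of -0.36, -0.30 and -0.92. With total-count scaling these became 3, 2 and 4 lower. Of all genes tested 8.52%, 10.4% and 27.8% were lower as deposited, and 4.78%, 6.07% and 10.6% with total-count scaling. Fdxr and Hpdl, an enzyme of the ring precursor, fell in all 3, with Fdxr at -0.82 ± 0.25, -0.93 ± 0.17 and -0.92 ± 0.16 in the authors' deposited table (3-week males, 3-week females, 3-month males). Hpdl was at -1.24, -1.49 and -1.08 in the authors' deposited table, on low means from 91.4 down to 23.9 normalized counts.

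Adck3 fell in both tables of males, at -0.88 ± 0.23 (adjusted p = 0.00208) and -1.97 ± 0.31 (adjusted p = 1.68e-09) in the authors' deposited table, and was at -0.53 ± 0.23 (adjusted p = 0.0935) in females. Its paralogue Adck4, the form tied to podocyte disease, was at -0.22, 0.00 and -0.13 (adjusted p from 0.573 to 0.991) in the authors' deposited table. Coq10b, the paralogue of Coq10a, was at 0.15 ± 0.28, -0.29 ± 0.29 and -0.44 ± 0.44 in the authors' deposited table and was not called. Pptc7 and Stard7, a lipid transfer protein, fell at 3 months, at -0.77 ± 0.12 and -1.12 ± 0.19 in the authors' deposited table, and were not called at 3 weeks. Fdx1l, a ferredoxin, was tested in 3-week males only, at -0.46 ± 0.37 (adjusted p = 0.470) in the authors' deposited table.

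The mevalonate genes, which supply isoprenoid units, had medians near 0 as deposited. Of this list 0 of 9 were called in 3-week males by the authors' DESeq2 test, with 1 lower and 2 higher at an unadjusted p under 0.05. In females 1 of 8 rose, where 8.29% of all genes tested were called higher. At 3 months 2 of 8 fell and 3 rose, where 27.8% of all genes tested were called lower and 29.8% higher. The medians were 0.01, 0.00 and 0.09, against -0.01, 0.01 and 0.01 for all genes tested. With total-count scaling 2, 1 and 5 were higher, where 2129 of 14657, 2446 of 14146 and 7107 of 12828 genes tested were higher. On that scale 1 was lower, at 3 months only, where 10.6% of all genes tested were lower. The medians were then 0.19, 0.15 and 0.59, against 0.17, 0.16 and 0.51 for all genes tested. Fdps, which makes the farnesyl unit that the tail is built on, was at 0.44 ± 0.17 (adjusted p = 0.0551), 0.53 ± 0.13 (adjusted p = 0.00106) and 2.18 ± 0.31 (adjusted p = 2.98e-11) in the authors' deposited table. Hmgcs1, an early enzyme, was at -0.45 ± 0.20 (adjusted p = 0.105) in 3-week males and at 0.55 ± 0.26, an outlier with no p, in females, and fell at 3 months, at -1.59 ± 0.39 (adjusted p = 0.000153), in the authors' deposited table.

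Genes of the enzymes that reduce or oxidise coenzyme Q also fell. Beside them, 8.52%, 10.4% and 27.8% of all genes tested were lower as deposited (3-week males, 3-week females, 3-month males). With total-count scaling the shares were 4.78%, 6.07% and 10.6%. Of 13 genes for complex II and other dehydrogenases that reduce it, 7 fell in 3-week males, 6 in females and 9 of 12 tested at 3 months, with medians of -0.47, -0.42 and -1.19. Of 11 complex III genes, which oxidise it, 8, 8 and 10 fell, with medians of -0.65, -0.55 and -0.63. Of the complex I subunits 28 of 35, 32 of 35 and 30 of 34 tested fell, with medians of -0.65, -0.59 and -0.64. The medians of the 10 coenzyme Q genes were nearer to 0 than those of complexes I and III at 3 weeks and farther from 0 at 3 months, a description with no test. A median farther from 0 at 3 months was not particular to them. Between 3-week and 3-month males the dehydrogenase list went from -0.47 to -1.19 and the partners from -0.36 to -0.92. With total-count scaling 3, 5 and 15 genes of these lists were lower in 3-week males, 4, 7 and 25 in females, and none higher. At 3 months on that scale 8 of the 12 dehydrogenase genes, 5 of the 11 complex III genes and 11 of the 34 complex I genes were lower and 2, 1 and 3 higher. Prodh2 of the dehydrogenase list, an enzyme of hydroxyproline breakdown, was at -0.99, -0.96 and -2.24, and Uqcrc1 of complex III at -0.85, -0.73 and -1.19, in the authors' deposited table.

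**Figure D5:**
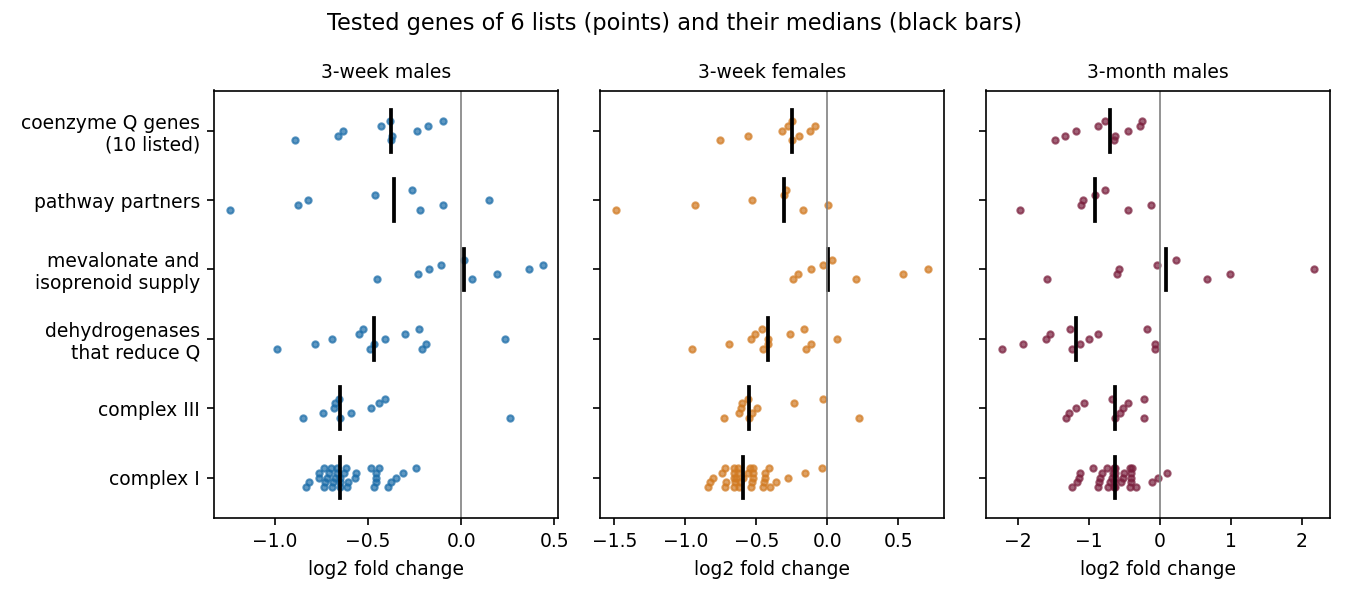
Log2 fold changes of the tested genes of 6 lists in each table (points, spread vertically for sight only), with list medians as black bars; the horizontal scales differ between panels. The mevalonate list sits around 0 in all 3 panels and the other lists have their medians below 0.

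Markers of kidney cell types also differed between the genotypes, and the tables give 1 mean per marker over both genotypes. All genes tested were called lower in 8.52%, 10.4% and 27.8% and higher in 8.81%, 8.29% and 29.8% (3-week males, 3-week females, 3-month males). With total-count scaling 4.78%, 6.07% and 10.6% were lower. On that scale 2129 of 14657, 2446 of 14146 and 7107 of 12828 genes tested were higher. Of 10 proximal tubule markers, 7 of 9 tested fell in 3-week males, 3 of 7 in females and 3 of 3 at 3 months, where the other 7 were outliers, and the medians of all 10 were -0.89, -0.35 and -2.63. Their summed means were 392007, 310160 and 235029 normalized counts. Of 5 markers of the distal convoluted tubule, 4 of 5 tested fell in 3-week males, 4 of 4 in females and 2 of 2 at 3 months. Of 5 markers of the thick ascending limb, 3 of 4 and 4 of 5 tested fell at 3 weeks, and all 5 were outliers at 3 months, with a median of -0.71. Intercalated cell markers fell in 2 of 3, 1 of 2 and 0 of 1 tested. Principal cell markers rose in 2 of 3, 0 of 1 and 3 of 3 tested. Endothelial markers fell in 2 of 5 and 5 of 5 tested at 3 weeks, and at 3 months 1 of 3 fell and 1 rose, while with total-count scaling none was lower and 2 were higher at 3 months. Of the fibroblast markers 0 of 1 tested was called in 3-week males, 3 of 6 rose and 1 fell in females, and 3 of 3 rose at 3 months. Of the 4 Y-linked genes 3 fell at 3 months, Ddx3y, Uty and Kdm5d, at -0.65, -0.59 and -0.42 in the authors' deposited table, and none was lower with total-count scaling. Of 5 podocyte markers, 3 fell in 3-week males and 1 in females, and at 3 months 3 of 4 tested fell and 1 rose, while with total-count scaling 0, 1 and 1 were lower and 1 was higher at 3 months. Of 7 immune markers measured 4 rose in each 3-week table and 6 of 6 tested at 3 months, with medians of the tested genes of 0.95, 0.86 and 2.78. At 3 months the 5 urothelial markers had a median of 8.00 and the 5 fat cell markers one of 4.67, with 1 and 2 of them tested and called higher, against 1.84 and 0.10 in 3-week males. No marker in the 12 lists was at 0 in any table, and their part in the coenzyme Q values was not tested.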

How the data were processed

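Kidney RNA of 15 mice in 6 groups was sequenced with a stranded mRNA kit, per the labels' protocols, and groups were taken from titles. The submitters' processing notes name mm10, STAR, HOMER and DESeq2, with versions not given in the sources used here. Only 3 tables of the authors' comparisons were analysed. Per the file headers their values are means of normalized counts (used as a signal, at or above 0), log2 fold changes, standard errors, p-values with adjustment, and a status. The deposited p-values equalled the normal p of fold change over standard error within 1% for 100% of tested genes. They measure the spread between the libraries of littermates that entered.

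A gene was called at the authors' adjusted p under 0.05 with the status OK, which starts at a mean of about 10.0, and 27 symbols turned into dates were left out. Differences between tables were tested over all genes with a p in both, by a 2-sided normal test with Benjamini-Hochberg adjustment (scipy 1.17.1). A run on simulated tables drew normal errors of the deposited SEs, as the test assumes. It therefore checks the computation and cannot show that the test suits these data. Lengths and coordinates are GENCODE M21, matched to 93.8% of genes tested in 3-week males. The total-count shift came from the summed means of each genotype implied by means, fold changes and library numbers read from recurring low means. The rule for named genes took all 10 genes, all partners, Esrrg and up to 3 genes of each other pathway list, of which some are given. The latter had the lowest rank of p, summed over the comparisons where a gene had a p. A missing p therefore lowered a gene's sum, as for Hmgcs1, which had a p in 2 comparisons. The genes, lists and tests were chosen with earlier results of these data known. No library could be left out, as the tables hold no values per library.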

Additional observations from a re-analysis of the deposited data

Results flagged for a closer look

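The genotype effect of 2 of the 10 genes differed between the ages in males by the test of the difference itself. For Pdss1 the log2 fold change at 3 months minus that at 3 weeks was -1.24, and for Coq10a it was -0.59 (adjusted p = 0.0188 and 0.0208). Neither difference passed with libraries scaled to total counts. Of all genes tested 27.7% differed between the ages, a larger share than 2 of 10, and 10.9% were more negative at 3 months.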

How the results depend on the processing

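The tables hold 1 mean per gene, so no kidney could be left out, and depth limits could not be set per kidney. No paired analysis was possible because the replicate numbers run from 1 to 15 without repeats and the tables hold no values per library. The count of coenzyme Q genes called lower was 3, 2 and 8 (3-week males, 3-week females, 3-month males), against 8.52%, 10.4% and 27.8% of all genes tested. A threshold of 0.1 gave 5 in 3-week males, against 11.0% of all genes tested, and total-count scaling gave 4 at 3 months, against 10.6%. The count of genes whose effect differed between the ages was 2, where 27.7% of all genes tested differed. It was 0 at a threshold of 0.01, 4 at 0.1 and 1 with total-count scaling, an alternative chosen after seeing the data. Shares of all genes under these other settings are not given here, so these counts cannot be set against them. Total-count scaling turned Pdss1 in 3-week males to 0.082, Coq2 and Pdss2 in females to 0.025 and 0.064, and Coq4, Coq6 and Coq7 at 3 months to 0.043, 0.24 and 0.22, none of them called. The count of genes with the ERR element was 0, against 2 with AAGGTCA, and 3 with CCGGAAG and 1 with GCATGCGC, both chosen later. The median of the 10 genes' percentiles of level in 3-week males was 59.8 by exon length and 65.8 by coding length. Centring, a mean minimum of 50, no filter and kept outliers changed no count by more than 1.5 times. Of 182 values of single genes under alternatives, 169 kept direction and call. Another 6 kept direction but lost the call, 1 gained it and 6 turned. All that lost the call and all that turned did so with total-count scaling. For the ages these values cover Pdss1 and Coq10a alone, so the call that Coq7 gained there with total-count scaling (0.70, adjusted p = 0.00688) is not among them.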
